A study of Mus musculus with 25 samples.

Results

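The 7 genes described here encode proteins that set how strongly T cells respond and are linked to anergy: the ubiquitin ligases Cbl, Cblb, Itch, Nedd4 and Rnf128 (also called GRAIL), and the diacylglycerol kinases Dgka and Dgkz. They were chosen by name, with earlier results of these data known. All 7 were found among the 22985 gene symbols kept from the expression tables. RNA-seq was measured in regulatory T cells (Treg) and conventional T cells (Tconv) from spleen and lymph nodes of C57BL/6 mice, in 25 libraries. NF-kB is a transcription factor family, and p65 (gene Rela) and c-Rel (gene Rel) are 2 of its subunits. The genotypes, as labelled, were DKO (a double knockout of p65 and c-Rel), c-RelKO, p65KO and wild type (WT).

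Without stimulation there were 2 libraries of DKO Treg, 2 of c-RelKO Treg, 3 of p65KO Treg, 4 of WT Treg and 2 of WT Tconv. After stimulation through CD3 and CD28 with antibodies at 2 µg/ml, given with IL-2 over 3 h (called stim), there were 2 of DKO Treg, 1 of c-RelKO Treg, 1 of p65KO Treg, 2 of WT Treg and 2 of WT Tconv. A separate set of 4 stimulated libraries belongs to an experiment with TAT-Cre, a cell-permeable recombinase: 1 Treg library labelled FoxP3 del, 1 Treg library labelled NFkB del, and undeleted WT Treg and WT Tconv controls with 1 library each. The sources used here name neither the alleles, nor a Cre driver, nor the animals behind each library. The p-values therefore speak only of how these libraries vary, part of which may be technical.

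Anergy is the state of a T cell that has met antigen without costimulation and afterwards fails to respond. The E3 ligases mark receptors, adaptors and kinases of the antigen receptor pathway with ubiquitin, and the diacylglycerol kinases turn diacylglycerol, the second messenger that activates RasGRP1 and protein kinase C, into phosphatidic acid. The transcription factors NFAT, Egr2 and Egr3 are known to drive several of these genes in anergic cells, and in Treg the ligases are known for limiting effector programmes.

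Values are FPKM, which divides a gene's fragments by transcript length and by the library's mapped fragments, so that levels can be compared between genes. Differences were tested as log2(FPKM + 1) with limma in the 21 libraries that are not of the TAT-Cre set, for the 11532 genes that reached 1 FPKM in 2 or more of them, and a gene was called when its Benjamini-Hochberg adjusted p was under 0.05. A pseudocount of 1 understates the differences of genes near or below 1 FPKM. All 7 genes passed this filter. The numbers in the library labels fall into 4 unbroken runs, not called batches there: WT Treg replicates 1 to 4 belong to runs 1 to 4, p65KO Treg replicates to runs 1, 2 and 4, and the resting and stimulated replicates 1 and 2 of the other groups to runs 3 and 4. The lone stimulated p65KO and c-RelKO libraries belong to run 4. A second fit had the run as a block. The comparisons of each knockout with WT Treg share the WT Treg libraries.

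The labels were checked first. Rel was 1.76 to 2.23 FPKM in the 7 libraries labelled c-RelKO or DKO, and 27.5, 200, 271 and 252 FPKM in resting WT Treg. Rela kept 56.3 and 76.1 FPKM in DKO Treg and 58.0, 69.3 and 79.8 FPKM in p65KO Treg, against 64.9, 99.1, 130 and 124 FPKM in WT Treg. After stimulation it was 107 and 99.0 FPKM in DKO Treg and 74.1 FPKM in p65KO Treg, against 126 and 118 FPKM in WT Treg, so the gene-level values do not by themselves show the loss of p65. Foxp3, the defining transcription factor of Treg, was only 8.01 and 21.2 FPKM in DKO Treg and 6.34 and 8.31 FPKM after stimulation, against 129, 210, 344 and 351 FPKM in WT Treg and 0.542 and 0.927 FPKM in WT Tconv. Of the other 5 Treg markers, Ikzf2 was 19.8 and 27.4 FPKM in DKO Treg, against 112 to 122 FPKM in WT Treg, and Lrrc32 and Gpr83 were lower in DKO Treg without overlap, while Il2ra and Ctla4 overlapped. In the library labelled FoxP3 del, Foxp3 was 266 FPKM against 86.7 FPKM in its Treg control, so no direction is drawn from that label. Markers of other cells were high in several libraries. c-RelKO Treg 2 had summed erythroid, myeloid and B cell markers of 18100, 1690 and 253 FPKM, and p65KO Treg 3 had 743 FPKM of myeloid markers. WT Treg 1 had 71.2 FPKM of B cell and 115 FPKM of myeloid markers, WT Treg 2 had 618 FPKM of erythroid markers, and NFkB del had 1510 FPKM of them. Xist, the RNA that coats the inactive X chromosome of female cells, divided libraries of the same run: it was 22.6 FPKM in DKO Treg 1 and 59.3 FPKM in WT Treg 3, but 36.4 FPKM in DKO Treg 2 and 0.00751 FPKM in WT Treg 4, and 0.108 FPKM in p65KO Treg 1 and 131 FPKM in WT Treg 1. Depth, as implied by the confidence bounds, lay between 15.4 and 52.8 M fragments per library, M standing for mega.

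At the level of single genes, Dgka was the most abundant of the 7 in most groups and Nedd4 and Rnf128 were the least. Over the 21 libraries Dgka ranged from 54.3 to 680.0 FPKM with a median of 245 FPKM, Cblb from 32.7 to 197 with a median of 104, and Dgkz from 52.2 to 219 with a median of 65.4. Cbl ranged from 6.62 to 62.1 FPKM with a median of 31.4, and Itch, the steadiest of the 7, from 21.3 to 41.3 with a median of 29.4. Nedd4 reached 1 FPKM in 9 of 21 libraries and Rnf128 in 16 of 21. The highest Rnf128 library stood 53.3-fold above the lowest and the highest Nedd4 library 51.8-fold, whereas this ratio was 1.94 for Itch. Depth bears on these numbers: the Cufflinks confidence bounds imply, over all 25 libraries, 18 to 1513 fragments per library for Nedd4 and 17 to 1702 for Rnf128, and at least 1320 for the other 5 genes.

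**Figure D1:**
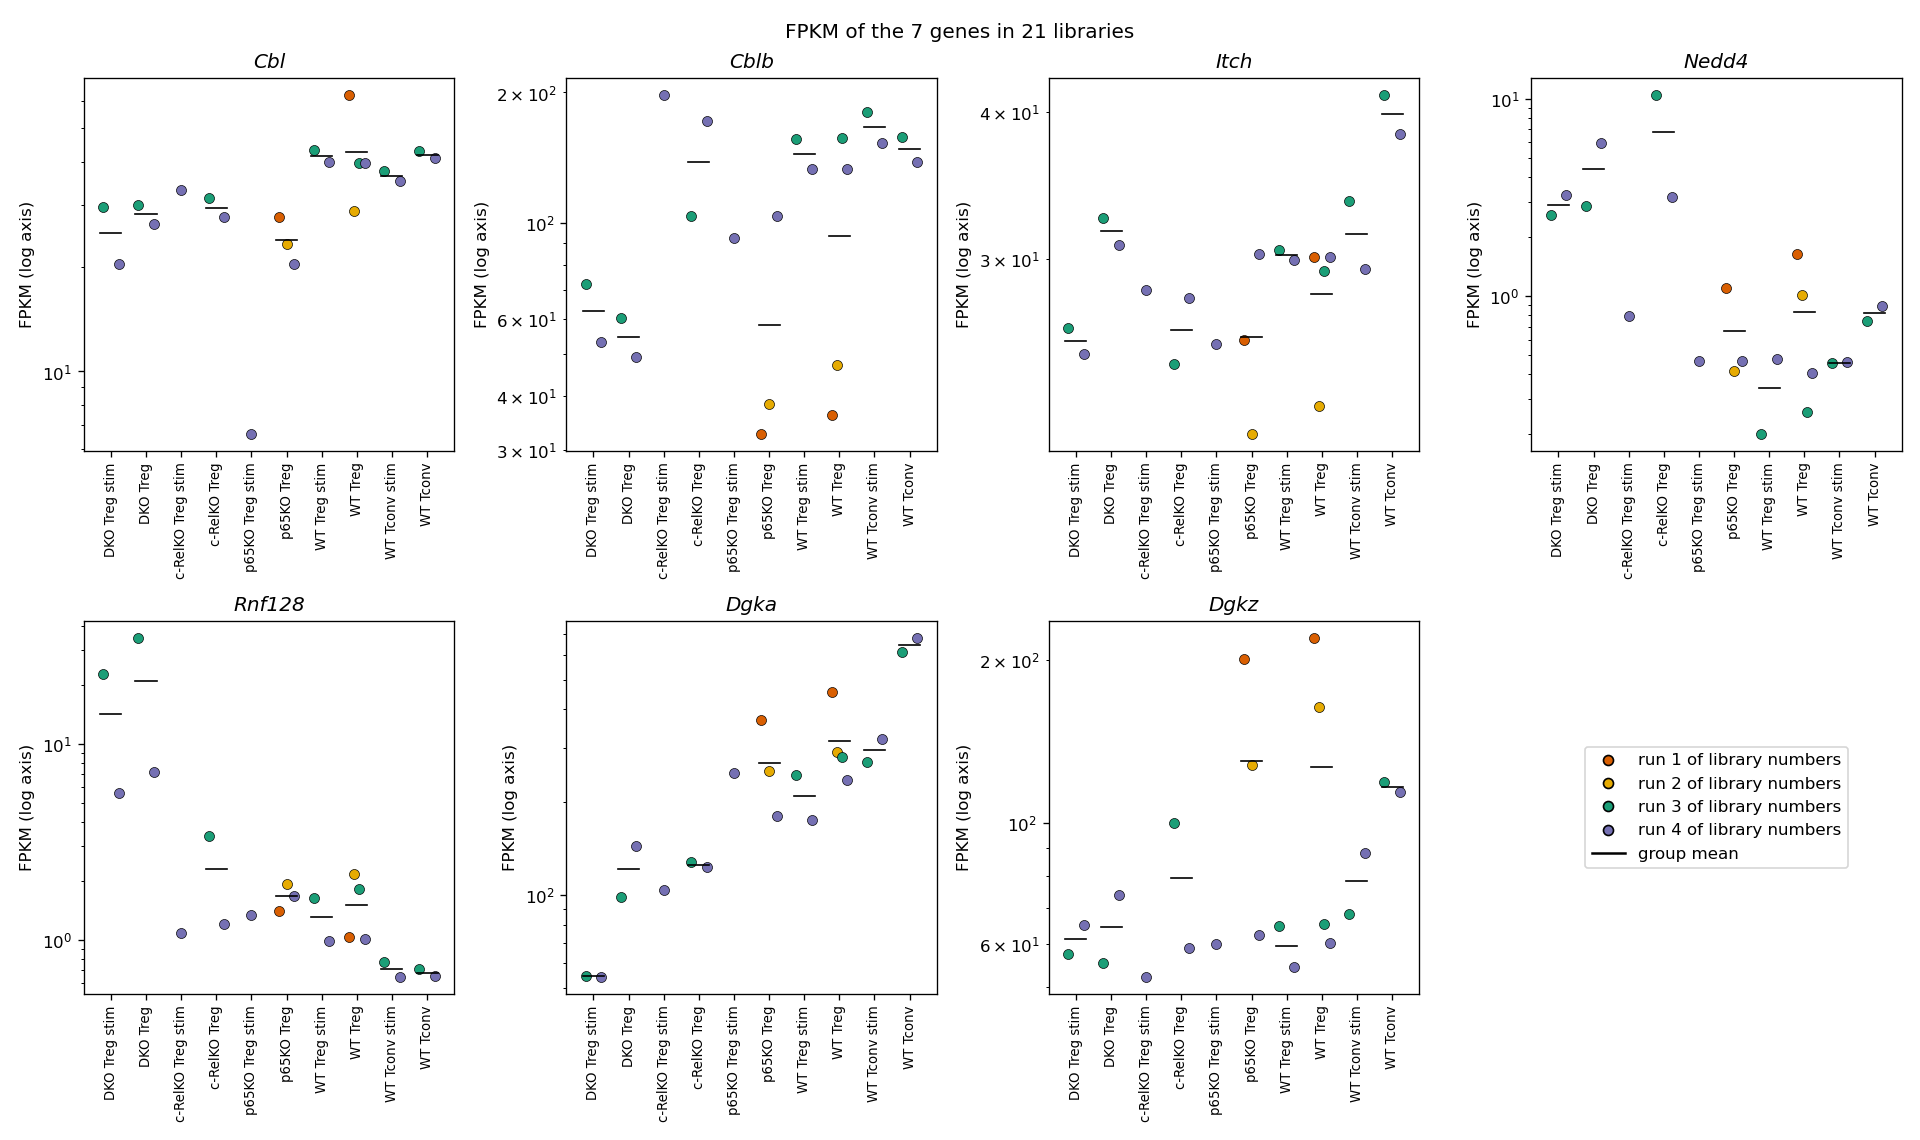
Level of each of the 7 genes in FPKM (log axis) in the 21 libraries outside the TAT-Cre set; each point is 1 library, its colour the run of library numbers, and the line the group mean. Rnf128 stood at 5.58 to 34.5 FPKM in the 4 DKO libraries and at 3.38 FPKM or less in all others, and Cblb and Dgkz of WT Treg split by run.

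In the mouse genome build mm9 used by the files, Cbl lies at chr9:43957344-44042129, Cblb at chr16:52031661-52208159, Itch at chr2:154959216-155052591, Nedd4 at chr9:72510153-72597655, Rnf128 at chrX:136097878-136207684, Dgka at chr10:128157191-128181112 and Dgkz at chr2:91772978-91803720. Dgka overlaps 1 other entry, Pmel, and how reads in the overlap were divided is not recorded; Pmel was 0.352 to 6.99 FPKM in the same libraries. RefSeq promoter windows (250 bases before to 50 after a start, build GRCm38.p6) were matched for 6 of the 7 genes, all but Itch, in 11 windows. The windows below are those of the 5 genes called in DKO Treg in either fit; for genes with several windows, the one holding a match is shown. Capitals mark matches, on either strand, to the motifs GTGGGCG (EGR), TGANTCA (AP-1) and GGAAAA (NFAT core).
Cbl, chr9:44233997-44234296, minus strand: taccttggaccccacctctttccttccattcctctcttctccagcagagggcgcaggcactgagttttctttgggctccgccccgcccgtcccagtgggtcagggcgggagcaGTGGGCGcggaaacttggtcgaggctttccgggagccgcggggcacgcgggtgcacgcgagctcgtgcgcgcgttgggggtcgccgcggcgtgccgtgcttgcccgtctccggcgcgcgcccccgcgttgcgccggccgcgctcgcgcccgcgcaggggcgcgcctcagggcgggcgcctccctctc
Cblb, chr16:52031299-52031598, plus strand: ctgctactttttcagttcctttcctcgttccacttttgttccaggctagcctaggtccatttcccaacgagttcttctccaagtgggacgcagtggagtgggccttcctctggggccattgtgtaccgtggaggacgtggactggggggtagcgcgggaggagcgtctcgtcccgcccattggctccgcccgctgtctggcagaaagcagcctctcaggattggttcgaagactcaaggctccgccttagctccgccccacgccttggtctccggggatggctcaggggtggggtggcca
Nedd4, chr9:72693048-72693347, plus strand: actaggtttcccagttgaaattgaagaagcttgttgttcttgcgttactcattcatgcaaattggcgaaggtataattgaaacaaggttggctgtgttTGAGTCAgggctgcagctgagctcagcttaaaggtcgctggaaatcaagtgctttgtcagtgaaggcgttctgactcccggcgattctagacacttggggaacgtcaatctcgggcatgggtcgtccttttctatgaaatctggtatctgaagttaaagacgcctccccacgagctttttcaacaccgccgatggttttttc
Rnf128, chrX:139610370-139610669, plus strand: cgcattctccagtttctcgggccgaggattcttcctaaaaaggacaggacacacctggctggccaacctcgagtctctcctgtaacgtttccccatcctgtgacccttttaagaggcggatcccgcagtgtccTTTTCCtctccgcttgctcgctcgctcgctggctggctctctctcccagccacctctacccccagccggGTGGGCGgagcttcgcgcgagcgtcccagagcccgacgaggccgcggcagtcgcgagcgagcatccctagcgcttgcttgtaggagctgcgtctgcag
Dgka, chr10:128745035-128745334, minus strand: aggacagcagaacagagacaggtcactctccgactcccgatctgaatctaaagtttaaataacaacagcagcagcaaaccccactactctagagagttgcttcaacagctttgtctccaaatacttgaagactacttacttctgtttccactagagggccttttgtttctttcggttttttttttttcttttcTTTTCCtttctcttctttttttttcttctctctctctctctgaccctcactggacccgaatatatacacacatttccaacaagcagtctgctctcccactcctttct
A kappa-B motif, the sequence bound by NF-kB, was matched in 0 of the 11 windows, and in 8.46% of all 32851 windows of the table. The FOXO motif TGTTTAC was matched in none of the 11 and in 3.65% of all. The EGR motif stood 137 bases before the start of Cbl and 48 bases before that of Rnf128, and in 1 window of Dgkz, against 7.97% of all windows. The NFAT core stood 117 bases before the start of Rnf128 and 57 bases before 1 start of Dgka, against 23.4% of all, and the AP-1 motif 152 bases before 1 start of Nedd4, against 7.81% of all. No match overlapped another. A match is a description of these letters only, and its absence says nothing of binding outside the windows.

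Cbl encodes c-Cbl, a RING-type ligase that targets activated receptor-linked kinases. Its level was 30.1 and 26.6 FPKM in DKO Treg, 31.4 and 27.7 FPKM in c-RelKO Treg and 27.8, 23.2 and 20.4 FPKM in p65KO Treg, against 62.1, 28.9, 39.7 and 39.6 FPKM in WT Treg. Every library without a subunit lay below the WT Treg library of its own run; p65KO and WT Treg did not overlap, as in 5.68% of all genes, while DKO and c-RelKO Treg overlapped WT Treg through replicate 2. Between p65KO and WT Treg the difference was -0.77 ± 0.20 (SE) on the log2 scale, with an adjusted p of 0.233 and so not called; with the run as a block it was -0.77 ± 0.13 and was called (adjusted p = 0.012). None of the 7 genes was called in that comparison without the block, where 0.0434% of all genes were (1 of the 7 and 1130 genes had an unadjusted p under 0.05), and 1 with it, where 8.82% were. In DKO against WT Treg the difference was -0.52 ± 0.23 (adjusted p = 0.1), and -0.45 ± 0.16 with the block (adjusted p = 0.0261).

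After stimulation Cbl was 29.6 and 20.4 FPKM in DKO Treg, 33.3 FPKM in c-RelKO Treg and 6.62 FPKM in p65KO Treg, against 43.2 and 39.9 FPKM in WT Treg. The p65KO library stood lowest of all 21, and it was 1 of 1 library. DKO Treg stim was lower than WT Treg stim by a log2 difference of -0.73 ± 0.27 (limma adjusted p = 0.0487), a call that was lost without either WT Treg stim library (0.199 and 0.114) or without DKO Treg stim 2 (0.331). p65KO Treg stim was lower by -2.48 ± 0.33 (adjusted p = 0.00652, assuming that the lone library varies as the others do), and 1.01% of all genes were called in that comparison, Cbl alone among the 7, also with the block, where 27.2% were. Without WT Treg stim 1, which leaves 1 library on each side, the adjusted p was 0.0733. The resting p65KO library of the same run had 20.4 FPKM.

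Cblb encodes Cbl-b, the relative of c-Cbl that sets the need for CD28 costimulation. Its level was 60.3 and 49.1 FPKM in DKO Treg, 104 and 172 FPKM in c-RelKO Treg and 32.7, 38.4 and 104 FPKM in p65KO Treg, against 36.1, 47.1, 157 and 133 FPKM in WT Treg. WT and p65KO Treg of runs 1 and 2 stood at 32.7 to 47.1 FPKM, below every library of runs 3 and 4 in both genotypes, so the spread within a genotype followed the run. Within a run DKO Treg had 0.384 and 0.371 times the level of WT Treg. The log2 difference between DKO and WT Treg was -0.50 ± 0.54 without the block (adjusted p = 0.518) and -1.35 ± 0.20 with it (adjusted p = 0.000115), so this call rests on comparing libraries of the same run.

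Stimulated cells, all from runs 3 and 4, gave Cblb levels of 72.5 and 53.2 FPKM in DKO Treg, 197 FPKM in c-RelKO Treg and 92.3 FPKM in p65KO Treg, against 156 and 133 FPKM in WT Treg. DKO Treg stim and WT Treg stim did not overlap, as in 77% of all genes. The log2 difference was -1.20 ± 0.63 (adjusted p = 0.162), and -1.20 ± 0.21 with the block (adjusted p = 0.000395). DKO Treg was also lower than c-RelKO Treg, by -1.28 ± 0.63 (adjusted p = 0.144) or, with the block, -1.28 ± 0.21 (adjusted p = 0.000294). Against p65KO Treg the sign depended on the block: the difference was 0.094 ± 0.57 (adjusted p = 0.933) without it and -1.07 ± 0.22 (adjusted p = 0.00227) with it, where only 1 pair of libraries shared a run (49.1 FPKM in DKO Treg 2 and 104 FPKM in p65KO Treg 3).

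**Figure D2:**
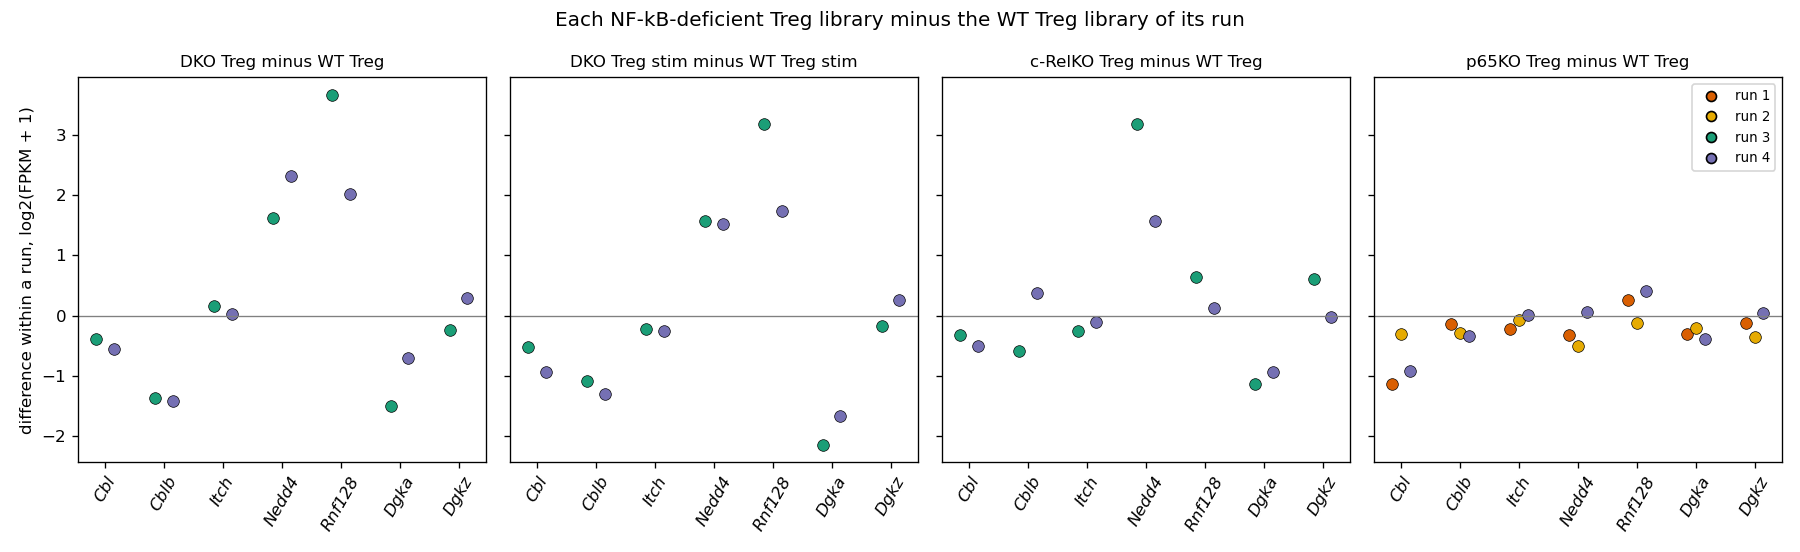
Difference in log2(FPKM + 1) between each DKO, stimulated DKO, c-RelKO or p65KO Treg library and the WT Treg library of the same run; each point is 1 pair, coloured by run. Cblb lay at -1.37 and -1.41 in the 2 resting DKO pairs and Rnf128 at 3.66 and 2.02, while all 7 genes of the p65KO pairs lay between -1.13 and 0.41.

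Itch is a HECT-type ligase named for the scratching of mice that lack it, with JunB among its known targets. It was 32.5 and 30.8 FPKM in DKO Treg, 24.4 and 27.8 FPKM in c-RelKO Treg and 25.6, 21.3 and 30.3 FPKM in p65KO Treg, against 30.1, 22.5, 29.3 and 30.1 FPKM in WT Treg. The knockout and WT levels lay close together, and no comparison of a knockout with WT Treg called Itch in either fit. WT Treg was lower than WT Tconv, which had 41.3 and 38.3 FPKM, and the groups did not overlap, as in 35.5% of all genes. That log2 difference was -0.50 ± 0.15 (adjusted p = 0.0427), or -0.37 ± 0.095 with the block (adjusted p = 0.00778). The call without the block was lost without WT Treg 2, 3 or 4 or either Tconv library, with adjusted p from 0.0509 to 0.28.

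Nedd4 is the HECT ligase that gives the family its name and a known activator of Cbl-b turnover. It was near or below 1 FPKM in WT cells and higher in resting Treg without c-Rel. It was 2.86 and 5.98 FPKM in DKO Treg, 10.4 and 3.18 FPKM in c-RelKO Treg and 1.10, 0.416 and 0.469 FPKM in p65KO Treg, against 1.64, 1.01, 0.259 and 0.407 FPKM in WT Treg. All 4 libraries of resting DKO and c-RelKO Treg stood above all WT and p65KO Treg libraries; groups did not overlap with WT Treg in 45.6% of all genes for DKO and 33.2% for c-RelKO Treg. c-RelKO Treg was higher than WT Treg by 1.98 ± 0.38 (adjusted p = 0.00479), and DKO Treg by 1.57 ± 0.38 (adjusted p = 0.00609); both were also called with the block. Without c-RelKO Treg 1 the first adjusted p was 0.105, and without DKO Treg 2 the second was 0.114.

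Stimulated DKO Treg kept 2.56 and 3.25 FPKM of Nedd4, against 0.200 and 0.481 FPKM in stimulated WT Treg, a log2 difference of 1.55 ± 0.44 (adjusted p = 0.015). Its call was lost without WT Treg stim 1 (0.105) or DKO Treg stim 2 (0.0965). The lone stimulated c-RelKO library had 0.793 FPKM, below both resting c-RelKO libraries and inside the 0.259 to 1.64 FPKM of resting WT Treg. It lay above both stimulated WT Treg libraries, and that difference was not called in either fit. DKO Treg was also higher than p65KO Treg, by 1.67 ± 0.40 (adjusted p = 0.0109, and 0.146 without DKO Treg 2). For 7 markers of natural killer and CD8 T cells, summed FPKM was 44.3 and 76.9 in DKO Treg. The sum was 44.0 and 44.5 in c-RelKO Treg, 13.3 to 32.1 in p65KO Treg and 8.99 to 24.5 in WT Treg. Gzma alone was 26.6 and 57.2 FPKM in DKO Treg. Gzma, Klrk1 and Ncr1 stood above all WT Treg libraries in DKO Treg, as did 25.7% of all genes. Cd8a, Cd8b1, Klrb1c and Eomes did not. At 1 FPKM or more were 3 or 4 of the 7 in DKO Treg, 5 and 7 in c-RelKO Treg and 1 to 5 in WT Treg, and Ncr1 was listed at 0 in WT Treg 3 and 4. Summed myeloid markers were 41.0 and 82.9 FPKM in DKO Treg and 98.9 and 1690 FPKM in c-RelKO Treg. They were 53.8 to 743 FPKM in p65KO Treg, 9.08 to 115 FPKM in WT Treg and 13.4 FPKM in stimulated c-RelKO Treg. The part of all these markers in the Nedd4 result was not tested.

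Rnf128 encodes GRAIL, a transmembrane RING ligase of the endosome first described in anergic T cells. It showed the largest fold of the 7 between the mean levels of DKO and WT Treg. It was 34.5 and 7.15 FPKM in DKO Treg, 3.38 and 1.20 FPKM in c-RelKO Treg and 1.41, 1.92 and 1.68 FPKM in p65KO Treg, against 1.04, 2.18, 1.81 and 1.01 FPKM in WT Treg. Both DKO libraries stood above all 9 other resting Treg libraries, although they differed from each other by more than the other groups did. Against WT Treg alone, 25.7% of all genes stood higher in DKO Treg without overlap. Within runs 3 and 4 the ratio of DKO to WT Treg was 19.1 and 7.06 for Rnf128, and 11 and 14.7 for Nedd4. The mean level of Rnf128 was 20.8 ± 19.4 FPKM in DKO Treg and 1.51 ± 0.579 FPKM in WT Treg (SD, n = 2 and 4), 13.8-fold higher in DKO Treg. The log2 difference was 2.79 ± 0.53 (limma adjusted p = 0.00125), and it stayed called without any single DKO or WT Treg library, between 1.73 and 3.85.

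DKO Treg was higher in Rnf128 than either single knockout as well. Against c-RelKO Treg the log2 difference was 2.46 ± 0.61 (adjusted p = 0.0114), the only one of the 7 genes called there, where 25.5% of all genes were (3 with the block, where 60.3% were); it was not called without DKO Treg 1 (0.122), without c-RelKO Treg 2 (0.0994) or without WT Treg 1, p65KO Treg 3 and c-RelKO Treg 2 together, the libraries of their groups with the most myeloid marker RNA. Against p65KO Treg it was 2.68 ± 0.56 (adjusted p = 0.00499; 0.0936 without DKO Treg 1), and 3 of the 7 genes were called in a comparison that called 18.3% of all genes (4 with the block, where 46.8% were). In stimulated cells the DKO libraries again stood highest, with 22.8 and 5.58 FPKM in DKO Treg, 1.08 FPKM in c-RelKO Treg and 1.34 FPKM in p65KO Treg, against 1.64 and 0.984 FPKM in WT Treg. DKO Treg stim was higher than WT Treg stim by 2.45 ± 0.61 (adjusted p = 0.0075), a call lost without DKO Treg stim 1 (0.101) or WT Treg stim 2 (0.0526). In both states the run 3 DKO library held the higher value. Foxp3 was far lower in the same DKO libraries. The 7 natural killer and CD8 markers summed to 47.5 to 73.1 FPKM in stimulated DKO Treg, against 8.93 to 11.3 FPKM in stimulated WT Treg. Gzma alone was 34.6 and 62.0 FPKM in stimulated DKO Treg. The 10 myeloid markers found summed to 41.0 to 82.9 FPKM in resting DKO Treg, against 9.08 to 115 FPKM in resting WT Treg. Rnf128 lies on the X chromosome, and DKO Treg 1 and WT Treg 3, which both had Xist, differed 19.1-fold, while DKO Treg 2 and WT Treg 4, which differed in Xist, differed 7.06-fold. The part of Foxp3, of these markers and of Xist in the Rnf128 differences was not tested.

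WT Treg and WT Tconv both had little Rnf128. The level was 1.04, 2.18, 1.81 and 1.01 FPKM in WT Treg and 0.707 and 0.654 FPKM in WT Tconv. The groups did not overlap, as in 35.5% of all genes, and the bounds imply only 29 to 104 fragments per library. The difference was not called (adjusted p = 0.548, and 0.268 with the block).

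Dgka encodes diacylglycerol kinase alpha, which follows diacylglycerol to the membrane when a T cell is triggered, and it was the gene of the 7 called in the most comparisons. Its level was 98.5 and 144 FPKM in DKO Treg, 128 and 123 FPKM in c-RelKO Treg and 369, 253 and 180 FPKM in p65KO Treg, against 455, 292, 280 and 236 FPKM in WT Treg. DKO and c-RelKO Treg lay below all WT Treg libraries, as did 20% of all genes in DKO and 24.7% in c-RelKO Treg. The p65KO libraries overlapped those of WT Treg. The log2 difference from WT Treg was -1.35 ± 0.29 in DKO Treg (adjusted p = 0.00258) and -1.28 ± 0.29 in c-RelKO Treg (adjusted p = 0.0112). Leaving out DKO Treg 1 gave an adjusted p of 0.0563 in the first comparison, and leaving out c-RelKO Treg 1 or 2 gave 0.0814 or 0.0888 in the second. As these are bulk samples, fewer cells of a type and less RNA per cell cannot be told apart.

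Over all 7 genes, 3 were called between DKO and WT Treg, 2 higher and 1 lower, where 33% of all genes were called (19.4% in the upward and 13.6% in the downward direction), and 5 with the block, where 61.2% were. Between c-RelKO and WT Treg 2 were called, where 10.6% of all genes were, and 2 with the block, where 41.6% were. The count in DKO Treg is near the share of all genes called. DKO and p65KO Treg differed in Dgka by -1.10 ± 0.30 (adjusted p = 0.0215), with DKO Treg lower. With the block it was -0.69 ± 0.20 (adjusted p = 0.0149), and the 1 pair of the same run, 144 FPKM in DKO Treg 2 and 180 FPKM in p65KO Treg 3, differed by -0.32. The call without the block was lost without p65KO Treg 1 (0.0655), p65KO Treg 2 (0.0522) or DKO Treg 1 (0.215).

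The level of Dgka in WT Treg was also lower than in WT Tconv, which had 612 and 680.0 FPKM, the highest of all groups. WT Treg lay at 236 to 455 FPKM with no overlap, as in 35.5% of all genes. The log2 difference was -1.07 ± 0.29 (adjusted p = 0.0249), or -1.37 ± 0.18 with the block (adjusted p = 0.000106). Its call without the block was lost without WT Treg 2 (0.0548), WT Treg 4 (0.0558) or either Tconv library (0.126 and 0.212). Itch and Dgka were the 2 of the 7 genes called between WT Treg and WT Tconv, where 12.6% of all genes were called; with the block 3 were, where 45.8% were.

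Dgkz, the zeta isoform and the kinase known for restraining Ras signalling in T cells, varied with the runs. It was 55.4 and 73.7 FPKM in DKO Treg, 100 and 58.9 FPKM in c-RelKO Treg and 201, 128 and 62.2 FPKM in p65KO Treg, against 219, 164, 65.4 and 60.3 FPKM in WT Treg. The WT and p65KO libraries of runs 1 and 2 held 128 to 219 FPKM and those of runs 3 and 4 held 60.3 to 65.4 FPKM. No comparison of a knockout with WT Treg called Dgkz in either fit. WT Tconv had 119 and 114 FPKM, inside the range of WT Treg. Within runs 3 and 4, the only ones that hold both cell types, WT Treg had 0.552 and 0.529 times the level of WT Tconv. The log2 difference was -0.088 ± 0.50 (adjusted p = 0.933) without the block and -0.83 ± 0.21 (adjusted p = 0.00759) with it.

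Dgka was the gene of the 7 called after 3 h of stimulation, in DKO Treg and WT Tconv. In DKO Treg, Dgka fell to 54.7 and 54.3 FPKM after stimulation, against 98.5 and 144 FPKM at rest, and in WT Tconv it fell to 270 and 320 FPKM, against 612 and 680.0 FPKM. WT Treg had 245 and 175 FPKM after stimulation, inside or below the resting 236 to 455 FPKM. The log2 difference was -1.12 ± 0.33 in DKO Treg (adjusted p = 0.0469) and -1.13 ± 0.33 in WT Tconv (adjusted p = 0.0389). Both calls were lost when any single library of the 2 groups was left out, with adjusted p from 0.0776 to 0.298 in DKO Treg and from 0.105 to 0.24 in WT Tconv; with the block they were 0.000803 and 0.000635. In WT Treg none of the 7 genes was called, nor was any gene in either fit (0%; at an unadjusted p under 0.05 there were 0 of the 7 and 311 of all genes).

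Dgka was the gene of the 7 called in DKO Treg stim against DKO Treg, where 9.99% of all genes were called, and in WT Tconv stim against WT Tconv, where 11.9% were. Itch joined it with the block, where 42.1% and 43.1% of all genes were called. It was 26.2 and 24.9 FPKM in stimulated DKO Treg, against 32.5 and 30.8 FPKM at rest, a log2 difference of -0.30 ± 0.10 (adjusted p = 0.0308). Stimulated WT Tconv had 33.6 and 29.4 FPKM of Itch, against 41.3 and 38.3 FPKM at rest, a difference of -0.33 ± 0.10 (adjusted p = 0.0192). Neither group pair overlapped, as in 61.4% of all genes in DKO Treg and 69.8% in WT Tconv.

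Whether stimulation acted differently in 2 kinds of cell was tested as a difference of differences. For Dgka the response of WT Treg minus that of WT Tconv was 0.57 ± 0.44 (adjusted p = 0.741), and 0.87 ± 0.26 with the block (adjusted p = 0.0433). The response of DKO Treg minus that of WT Treg was -0.55 ± 0.44 (adjusted p = 0.805), and -0.86 ± 0.26 with the block (adjusted p = 0.0501). Without the block none of the 7 genes was called in either test, where 1.03% and 0.971% of all genes were; none of the 7 had an unadjusted p under 0.05, against 1324 and 1197 of all genes. With the block 1 was called in the first, where 16% of all genes were, and none in the second, where 14% were.

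**Figure D3:**
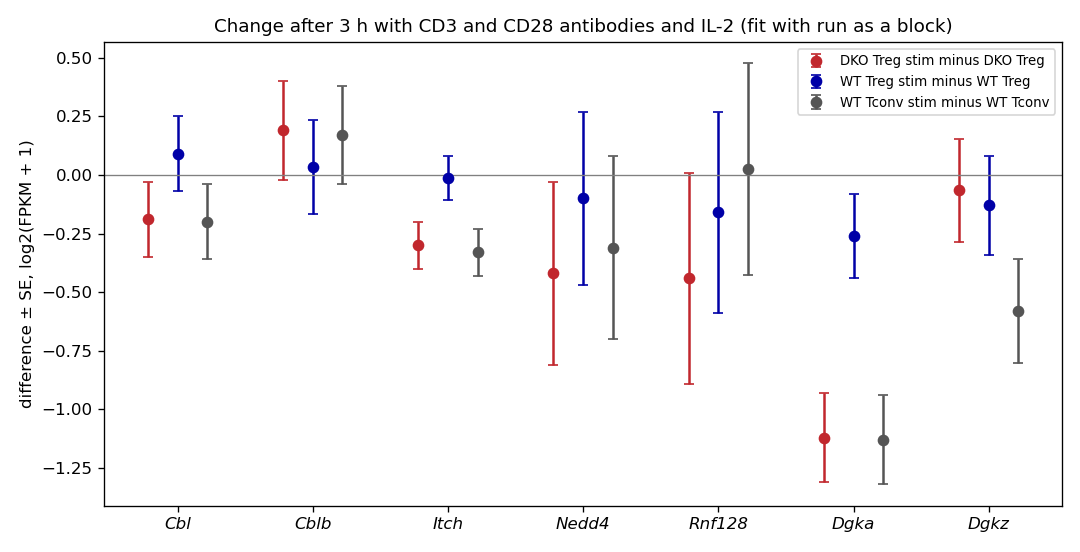
Log2 difference between stimulated and resting cells (± SE, fit with run as a block) for the 7 genes in DKO Treg, WT Treg and WT Tconv. Dgka lay at -1.12 in DKO Treg and -1.13 in WT Tconv, and at -0.26 in WT Treg.

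Stimulated Treg differed in Dgka between genotypes as well. Dgka was 54.7 and 54.3 FPKM in DKO Treg, 104 FPKM in c-RelKO Treg and 248 FPKM in p65KO Treg, against 245 and 175 FPKM in WT Treg. The 2 DKO libraries were the lowest of all 21. DKO Treg stim was lower than WT Treg stim by -1.91 ± 0.33 (adjusted p = 0.000693), and this stayed called without any single library of the 2 groups, between -2.15 and -1.66. The lone c-RelKO library differed by -0.98 ± 0.40, with an adjusted p of 0.587, and 0.0261 with the block; none of the 7 was called there without the block, where 0.347% of all genes were (1 of the 7 and 799 genes had an unadjusted p under 0.05), and 1 with it, where 8.55% were. Between DKO Treg stim and WT Treg stim 4 of the 7 genes were called, 2 higher and 2 lower, where 32.7% of all genes were called (16.6% upward and 16.2% downward), and 5 with the block, where 62.7% were.

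WT Treg and WT Tconv were also compared after stimulation. Dgka was 245 and 175 FPKM in WT Treg, against 270 and 320 FPKM in WT Tconv, and Dgkz was 64.7 and 54.5 FPKM against 68.2 and 88.2 FPKM. Neither gene overlapped between the 2 groups, as in 65.4% of all genes, and none of the 7 was called, where 6.64% of all genes were; at an unadjusted p under 0.05 there were 0 of the 7 and 2434 of all genes, and with the block 0 of the 7 were called, where 37% of all genes were.

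The order of the group means differed from gene to gene. For Dgka it ran from WT Tconv at 646 FPKM through WT Treg at 316, WT Tconv stim at 295, p65KO Treg at 267, p65KO Treg stim at 248, WT Treg stim at 210, c-RelKO Treg at 125, DKO Treg at 121 and c-RelKO Treg stim at 104 to DKO Treg stim at 54.5. Neighbours in this order overlapped in 5 of 9 steps and were apart at the first, the step down to WT Treg stim, the step to c-RelKO Treg and the last. For Rnf128 the 2 DKO groups came first, at 20.8 FPKM at rest and 14.2 stimulated, and the step from them to c-RelKO Treg at 2.29 was one of 2 without overlap. Nedd4 was led by c-RelKO Treg at 6.78 FPKM, DKO Treg at 4.42 and DKO Treg stim at 2.91, and these 3 overlapped in neighbouring pairs but stood apart from WT Treg at 0.828. Cblb was lowest in DKO Treg at 54.7 FPKM, p65KO Treg at 58.5 and DKO Treg stim at 62.9, which overlapped one another. These means do not match the runs. The p65KO mean holds 32.7 and 38.4 FPKM of runs 1 and 2, where WT Treg had 36.1 and 47.1 FPKM. In run 4, p65KO Treg had 104 FPKM of Cblb and DKO Treg 49.1 FPKM. Cbl was lowest in p65KO Treg stim at 6.62 FPKM and p65KO Treg at 23.8, which did not overlap.

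In the TAT-Cre set, with 1 library a group and no test, Cbl was 30.9 FPKM in the library labelled FoxP3 del and 18.2 FPKM in that labelled NFkB del, against 33.4 FPKM in the Treg control and 29 FPKM in the Tconv control. The authors' bounds for Cbl, which cover counting error within a library only, were 17.3 to 19.1 FPKM in NFkB del and 32 to 34.7 FPKM in the Treg control. Cblb was higher in NFkB del, at 99.5 FPKM (bounds 97.6 to 101), than in the Treg control, at 87.1 FPKM (85.1 to 89.0). In FoxP3 del it was 70.1 FPKM. Itch was 28.4 FPKM in FoxP3 del, 28.6 FPKM in NFkB del and 28.3 FPKM in the Treg control. Dgkz was 79.9, 91.3 and 98.5 FPKM in the same order. Nedd4 was 2.30 FPKM in FoxP3 del and 1.86 FPKM in NFkB del, against 0.663 FPKM in the Treg control. Summed myeloid markers were 121 FPKM in FoxP3 del and 105 FPKM in NFkB del, against 15.2 FPKM in the Treg control, and B cell markers 71.2 and 43.0 FPKM, against 32.9 FPKM. Their part in the Nedd4 values was not tested, and no direction is drawn from the FoxP3 del label. Rnf128 was 0.865 FPKM in FoxP3 del and 0.481 FPKM in NFkB del, against 0.508 FPKM in the Treg control, and its bounds overlapped among these 3. Dgka was 102 and 125 FPKM in FoxP3 del and NFkB del, against 108 FPKM in the Treg control and 69.1 FPKM in the Tconv control, so its Tconv control was the lowest of the 4. Rel was 38.7 FPKM in NFkB del and 171 FPKM in the Treg control, and Rela 124 and 125 FPKM.

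For each gene the 2 genes with the most similar pattern were found by Pearson's r of log2(FPKM + 1) over the 21 libraries. These points share groups and runs, so the values are descriptions. Dgka was followed by Arrdc2 (r = 0.982) and Ikbke (0.974), and Rnf128 by Palld (0.969) and Nipal4 (0.967). Cblb was closest to Zhx2 (0.957) and Zeb1 (0.945), and Dgkz to Hlcs (0.95) and Ganc (0.945). Itch was closest to Mcmbp (0.915) and Ralgapb (0.874), Nedd4 to Nrgn (0.905) and Klrk1 (0.903), an activating receptor of natural killer and CD8 T cells, and Cbl to Atf7 (0.849) and Myst3 (0.806). Atf7 was 1.97 FPKM in stimulated p65KO Treg, the library with the lowest Cbl, and 6.53 and 6.65 FPKM in stimulated WT Treg. Among the 7 genes themselves r was -0.689 between Rnf128 and Dgka, 0.621 between Dgka and Dgkz, and -0.58 between Cblb and Dgkz.

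The other diacylglycerol kinases that passed the filter were lower in DKO Treg. Of 8 on the list, 4 passed the filter and all 4 of these were called lower in DKO than in WT Treg, where 13.6% of all genes were, with a median log2 difference of -0.97, against 0.062 over all genes tested. Dgkd was 14.6 and 15 FPKM in DKO Treg and 35.7 to 69.0 FPKM in WT Treg (-1.73 ± 0.25, adjusted p = 0.000157), and Dgkq, the theta isoform, was 4.12 to 4.58 FPKM in DKO Treg and 9.19 to 11.1 FPKM in WT Treg (-1.05 ± 0.13, adjusted p = 5.52e-05). Dgke and Dgkh differed by -0.89 and -0.75. In WT Treg, Dgkd was 69.0 and 65.3 FPKM in runs 1 and 2, but 43.2 and 35.7 FPKM in runs 3 and 4. Dgke was 10.2 and 12 FPKM in runs 1 and 2, and 7.57 and 6.54 FPKM in runs 3 and 4. DKO Treg belongs to runs 3 and 4 only, so the sizes without the block also hold differences between runs. With the block all 4 were called lower as well, where 24.1% of all genes were. Among those that did not pass, Dgki was higher, at 0.879 and 0.413 FPKM in DKO Treg, against 0.0881 to 0.341 FPKM in WT Treg. Dgkg was lower, at 0.00972 and 0.0749 FPKM, against 0.321 to 0.397 FPKM. After stimulation 3 of the 4 were lower in DKO than in WT Treg, where 16.2% of all genes were. Dgkh was not, with 6.22 and 10.1 FPKM in DKO Treg, against 4.64 and 7.52 FPKM in WT Treg. With the block 3 were lower and 1 higher, where 31.3% and 31.4% of all genes were. In resting c-RelKO Treg 1 was lower than in WT Treg, Dgkq (-1.39 ± 0.13, adjusted p = 3.17e-05), where 8.98% of all genes were.

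**Figure D4:**
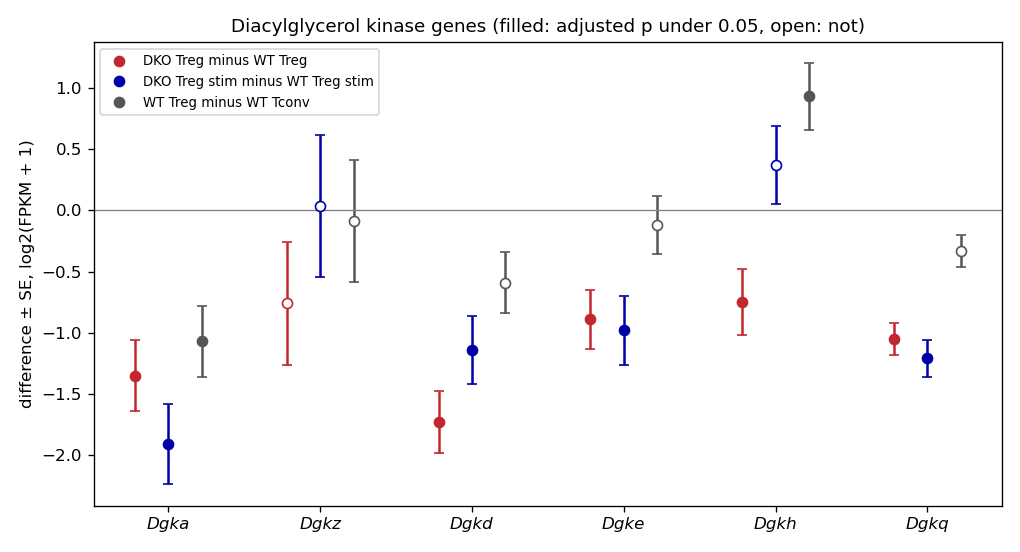
Log2 difference (± SE, fit without a block) of 6 diacylglycerol kinase genes between DKO and WT Treg at rest, between them after stimulation, and between WT Treg and WT Tconv; filled points have an adjusted p under 0.05. In resting DKO Treg 5 of the 6 were called lower, between -0.75 for Dgkh and -1.73 for Dgkd. Dgkz lay at -0.76 and was not called, but its difference was only -0.022 in the fit that blocks on run. DKO Treg had 0.846 times the Dgkz level of WT Treg in run 3 and 1.22 times in run 4.

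Of 19 tested genes that act on or below diacylglycerol towards Ras, 2 were higher and 3 lower in DKO than in WT Treg, where 19.4% and 13.6% of all genes were, and after stimulation none was higher and 5 were lower, where 16.6% and 16.2% of all genes were. With the block the counts were 4 higher and 7 lower at rest, where 37.1% and 24.1% of all genes were, and 2 and 11 after stimulation, where 31.4% and 31.3% were. Rasgrp1, the exchange factor that diacylglycerol recruits, was 77.0 to 93.1 FPKM in DKO Treg and 109 to 163 FPKM in WT Treg (-0.59 ± 0.19, adjusted p = 0.0283), and after stimulation 43.1 to 45.0 FPKM in DKO Treg and 138 to 172 FPKM in WT Treg (-1.79 ± 0.22, adjusted p = 5.59e-05). Prkch, a diacylglycerol-dependent kinase, was lower in both states. In WT Treg against WT Tconv 2 of 19 were lower, Prkd2 and Prkd3, kinases that bind diacylglycerol, where 5.53% of all genes were lower; with the block 2 were higher and 8 lower, where 19.5% and 26.4% of all genes were.

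The transcription factors linked to anergy differed in both directions. Of 8 tested, 5 were lower and 1 higher in DKO than in WT Treg at rest, where 13.6% and 19.4% of all genes were. After stimulation 2 were lower and 3 higher, where 16.2% and 16.6% of all genes were. Egr2 was 3.32 to 5.86 FPKM in DKO Treg and 19.8 to 61.1 FPKM in WT Treg at rest (-2.90 ± 0.45, adjusted p = 0.000311), but 214 to 289 FPKM in DKO Treg and 80.7 to 96.6 FPKM in WT Treg after stimulation (1.48 ± 0.52, adjusted p = 0.0415). Egr3 was lower at rest by -3.16 ± 0.41. Foxo1, which holds T cells quiescent, was lower in both states, by -1.55 ± 0.21 and -2.17 ± 0.24. Stimulation raised 4 of the 8 in DKO Treg, where it raised 3.86% of all genes, and 4 in WT Tconv, where it raised 6.69%, Egr2 by 5.52 in DKO Treg and by 3.28 in WT Tconv.

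Among partners of the ligases, single genes were called. Of all genes, 13.6% were lower and 19.4% higher in DKO than in WT Treg, and 24.1% and 37.1% with the block. Of 7 tested partners of the Cbl family, 1 was lower in DKO Treg, Ubash3b (Sts-1), a phosphatase that binds Cbl: it was 8.89 to 9.47 FPKM in DKO Treg and 19.3 to 30.7 FPKM in WT Treg (-1.19 ± 0.18, adjusted p = 0.000252). Stimulation raised it by 2.32 ± 0.21 in DKO Treg and by 1.95 ± 0.21 in WT Tconv. Of 7 tested relatives and adaptors of Nedd4, 2 were lower in DKO Treg, Nedd4l and Smurf1, and the adaptor Ndfip1, which activates Itch, rose to 561 to 635 FPKM in stimulated WT Tconv, against 244 to 311 FPKM at rest (1.11 ± 0.25, adjusted p = 0.00977). Of 10 other ligases and deubiquitinases, 1 was lower in DKO Treg, Peli1, by -0.67 ± 0.20 (adjusted p = 0.0184). With the block 6 of these 10 were lower and 1 higher. It called 3 lower and 2 higher of the Cbl partners, and 3 lower and 0 higher of the relatives and adaptors of Nedd4. Of 9 reported ligase substrates, 3 were lower in DKO Treg, Jun, Junb and Pik3r1, by -2.60, -2.09 and -1.08. With the block 3 were lower and 0 higher. The substrate Cd40lg was 1060 to 1130 FPKM in stimulated DKO Treg and 56.7 to 97.0 FPKM in stimulated WT Treg (3.86 ± 0.52, adjusted p = 0.000123).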

How the data were processed

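Expression was measured by RNA-seq in 25 libraries of mouse T cells, grouped by their labels. The authors deposited gene-level FPKM values, with confidence bounds, in Cufflinks gene tables (per the file headers) that hold no read counts; the submitters' processing notes name TopHat, Cufflinks, bcl2fastq and the build mm9. Tool versions, annotation and strand handling were not given in the sources used here. From these values 250 symbols with an entry not marked OK were left out and entries of 181 symbols were summed, which left 22985. Depth was implied from the confidence bounds. log2(FPKM + 1) was computed from the deposited FPKM and fitted with limma 3.58.1 in R 4.3.3 (trend on the mean, 10 group means, 21 libraries, 11 residual degrees of freedom, 8 with the run as a block) for 11532 genes in 15 comparisons, after testing on simulated data; p-values were adjusted by the Benjamini-Hochberg method over all tested genes. Groups with 1 library were assumed to vary like the others. The TAT-Cre libraries were not tested.

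The 7 genes and the lists were chosen with earlier results of these data known. The text names the 7 genes, the 2 genes most correlated with each, Rela, Rel and Foxp3, and from each list the counts; the rule was at most 3 genes with the smallest p for each list and comparison. Chosen outside it, after their values were seen, were Xist, the other Treg markers named, the natural killer and CD8 markers named and Pmel. So were Dgkh, Dgki, Dgkg, Prkch after stimulation, Rasgrp1 at rest and Egr2 after stimulation. Marker lists of T, B, myeloid, dendritic, erythroid, natural killer or CD8 T and Treg cells were summed per library. T cell markers summed to 818 to 2390 FPKM in all Treg libraries, and dendritic markers to at most 11.7 FPKM.

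Deviations from the group means correlated at 0.432 on average over 51 pairs of libraries of 1 run (lowest 0.0357). The mean was -0.209 over 105 pairs of different runs, and -0.119 over 25 pairs that share a replicate number but not a run. Promoter windows are those of RefSeq (GRCm38.p6). Alternatives were another pseudocount, no filter, size factors, a run or replicate block, only the groups compared, and each library left out. 1 result is not reported here.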

Additional observations from a re-analysis of the deposited data

Results flagged for a closer look

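Of the 7 genes in WT Treg, the only group of 4 or more libraries, Itch had 1 library far from the others: WT Treg 2 stood at 22.5 FPKM, against 29.3 to 30.1 FPKM in the other 3, so that the gap to the nearest was most of the group's range. Chance picks out about 1 in 20 groups by this rule. p65KO Treg 2, of the same run, was also the lowest of its group at 21.3 FPKM.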

How the results depend on the processing

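With the run as a block, the number of the 7 genes called was 1 for p65KO against WT Treg, 5 for DKO against WT Treg, 3 for DKO against c-RelKO Treg, 2 for either stimulation of DKO Treg or WT Tconv, 1 for c-RelKO against WT Treg after stimulation and 1 for the response of WT Treg minus WT Tconv. The block also raised the number of all genes called, to 5287 (1449 without it) for WT Treg against WT Tconv, 1017 (5) for p65KO, 4803 (1223) for c-RelKO and 7062 (3803) for DKO against WT Treg, 5397 (2109) and 6958 (2935) for DKO against p65KO and c-RelKO Treg, 4966 (1367) and 4851 (1152) for stimulation of WT Tconv and DKO Treg, 4270 (766) for stimulated WT Treg against WT Tconv, 7230 (3774), 3139 (117) and 986 (40) for stimulated DKO, p65KO and c-RelKO against WT Treg, and 1842 (119) and 1612 (112) for the responses of WT Treg minus WT Tconv and of DKO minus WT Treg. Libraries of 1 replicate number but different runs correlated at -0.119, and all pairs of different runs at -0.209. In a group of 2 libraries the deviations from the mean mirror each other, which pushes such values down. They therefore cannot tell whether replicate numbers pair the samples. With a replicate block the members called were 4 for c-RelKO, 5 for DKO and 3 for stimulated WT against WT Treg, 5 and 2 for DKO against p65KO and c-RelKO Treg, and 1 and 2 for the responses of WT Treg minus WT Tconv and of DKO minus WT Treg; Dgkz in WT Treg against WT Tconv was then 0.67 and Cblb in DKO against WT Treg 0.33. Size factors gave 1 for WT Treg against WT Tconv and 0 for stimulated DKO Treg, and no filter on low values gave 0 for both stimulations. Fitting only the groups compared gave 0 for WT Treg against WT Tconv, c-RelKO against WT Treg, DKO against p65KO Treg and stimulated DKO Treg, and 2 for stimulated WT Tconv. Alternatives chosen after seeing the data left out WT Treg 1, p65KO Treg 3 and c-RelKO Treg 2: 1 gene was then called for c-RelKO against WT Treg and 0 for DKO against c-RelKO Treg, and with the run block as well 5 for c-RelKO and 5 for DKO against WT Treg and 5 for DKO against c-RelKO Treg. Cblb in DKO against p65KO Treg was -1.07 with the run block, -1.1 with the block and those libraries out, and -0.22 without both libraries of run 1. Leaving out 1 library at a time gave 0 to 2 genes for WT Treg against WT Tconv and for c-RelKO against WT Treg, 2 to 4 for DKO against WT Treg, 1 to 3 and 0 to 1 for DKO against p65KO and c-RelKO Treg, 0 for either stimulation, 2 to 3 for stimulated DKO and 0 to 1 for stimulated p65KO against WT Treg; Dgkz in WT Treg against WT Tconv ranged from -0.42 to 0.2 and Cblb in DKO against p65KO Treg from -0.22 to 0.6. The cause of these changes was not tested. For the alternatives other than the run block, the counts of the 7 genes stand without the share of all genes called. Whether those counts moved beyond that share is therefore not shown. Size factors moved the median of all genes by 0.27 for DKO against c-RelKO Treg and by 0.21 or less elsewhere. Low fragment numbers limit Nedd4 and Rnf128. The half-width of the 95% bounds reached 47.1% of the value for Nedd4, in WT Treg stim 1. For Rnf128 it reached 47.9%, in the Treg control of the TAT-Cre set.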
